A study of Mus musculus with 50 samples.

Results

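Hearts of 8-month-old Tgαq*44 mice were compared with hearts of FVB mice of the same age. The mice were assigned to their groups by the deposited sample titles alone, 5 Tgαq*44 and 5 FVB mice, which makes 10 of the 50 libraries of the series, and 15129 of the 54532 genes of the counts table were measured well enough to be tested. The choice of this comparison and of the gene lists below was made with earlier results of these data known. The Tgαq*44 group consisted of female mice of 1 transgenic line on the FVB background, 8 months old, that overexpress an activated Gαq protein in cardiomyocytes and are labelled as having heart failure. The FVB group consisted of wild-type females of 8 months. No mouse received a treatment, all were kept on standard chow, and RNA came from the apex of the left ventricle of single mice. The same strains were also sampled at 4, 10, 12 and 14 months, again 5 mice each, and the study places 8 months in the transition phase of heart failure in this line. What distinguishes the transgenic heart at that age, and whether its difference from FVB is the same as at the other ages, are the questions the comparison addresses.

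Gαq couples receptors for angiotensin II, endothelin and noradrenaline to phospholipase C-β, which releases inositol trisphosphate and diacylglycerol and so raises calcium and activates protein kinase C. In cardiomyocytes, sustained Gαq signalling drives hypertrophy with re-expression of foetal genes, and continued activation leads to failure. Failing ventricles typically also lose fatty acid oxidation and lay down fibrous matrix.

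Gnaq itself, which encodes Gαq, was higher in the transgenic hearts. It had 35.5, 45.6, 34.2, 40.5 and 32.0 CPM in Tgαq*44 mice, against 22.8, 23.0, 17.6, 18.5 and 13.7 CPM in FVB mice. No FVB heart reached the lowest transgenic heart, and the difference was 0.98 on the log2 scale (standard error 0.19, adjusted p = 4.6e-05). The counts do not separate transgene transcripts from those of the mouse's own Gnaq. Values are CPM throughout, which are counts scaled to library size with TMM factors, and adjusted p-values are from edgeR's quasi-likelihood test with Benjamini-Hochberg adjustment over all 15129 genes.

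Library depth was 10558182 to 18945524 counts in Tgαq*44 mice and 9998763 to 15945956 counts in FVB mice. Along the first principal component of the 10 libraries, which carried 61.8% of the variance, all 5 Tgαq*44 mice lay on one side and all 5 FVB mice on the other, and FVB mice 1 and 2 lay farthest out. Mitochondrially encoded transcripts made up 19.0%, 15.3%, 15.2%, 16.2% and 15.6% of the counts in Tgαq*44 mice, against 29.9%, 31.9%, 23.1%, 24.8% and 20.5% in FVB mice. All transgenic hearts lay below all FVB hearts, at 16.3% ± 1.61 in Tgαq*44 mice and 26.0% ± 4.72 in FVB mice (SD, n = 5 each), with a two-sided exact permutation p of 0.00794, the smallest that 5 against 5 mice can give. FVB mice 1 and 2 had the highest shares, and without them the difference, Tgαq*44 minus FVB, was -6.55 percentage points instead of -9.77 (exact permutation p = 0.0179, the smallest that 5 against 3 mice can give).

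Single libraries stood apart and touch some results below. The library of Tgαq*44 mouse 4 held more of several transcripts foreign to ventricular muscle than any of the other 49 libraries. The summed level of 3 fast skeletal muscle genes, Tnnt3, Tnni2 and Mylpf, was 134 CPM in it, against 1.65 to 2.24 CPM in the other 4 Tgαq*44 mice and 1.34 to 2.10 CPM in the FVB mice. Its summed B and plasma cell markers reached 563 CPM, against 16.8 to 31.6 CPM in the other Tgαq*44 mice and 16.2 to 24.1 CPM in FVB mice, with Igkc at 246 CPM and Ighm at 253 CPM. Upk3b, a mesothelial marker, stood at 40.2 CPM and Cxcl13, a B cell chemokine, at 30.5 CPM in this mouse, each the highest of all 50 libraries. In FVB mouse 3 the summed interferon-response genes were at 1497 CPM, against 447 to 959 CPM in the other FVB mice, and the interferon-induced GTPase Igtp stood at 275 CPM, the highest of the 50 libraries.

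**Figure D1:**
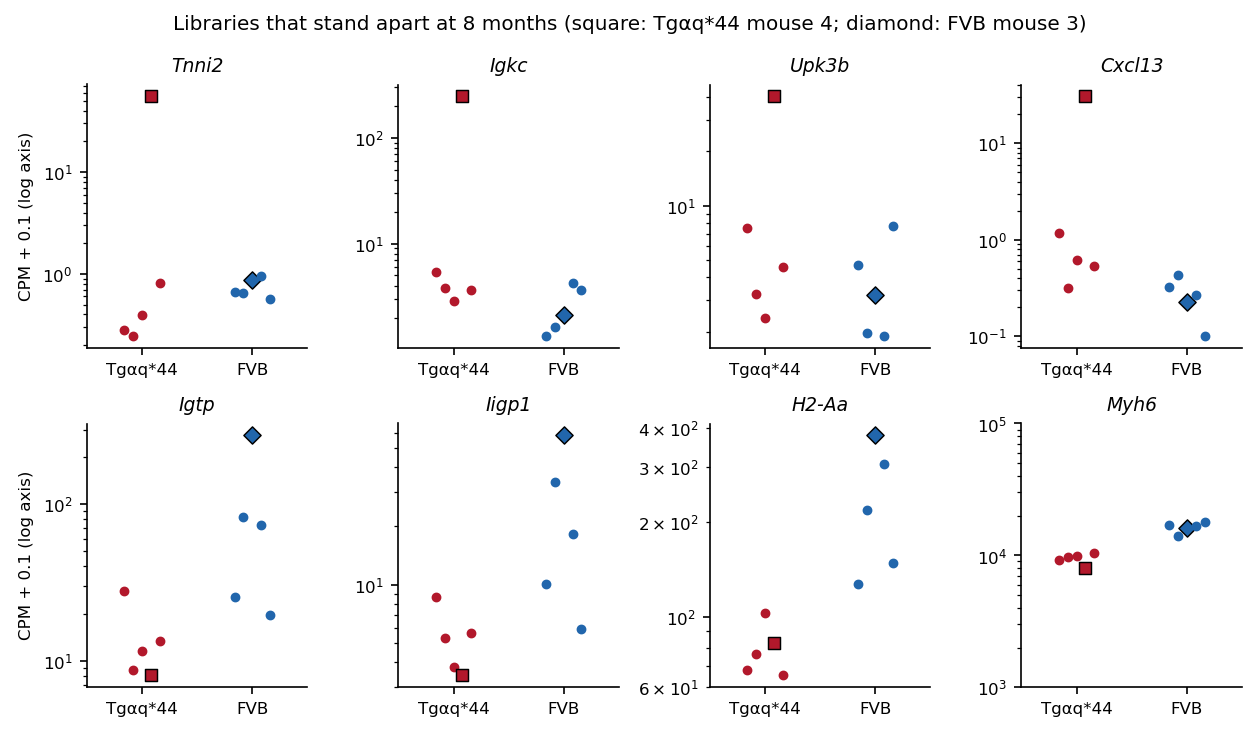
Levels of 4 transcripts foreign to ventricular muscle (Tnni2, Igkc, Upk3b, Cxcl13), 2 interferon-response genes (Igtp, Iigp1), the MHC class II gene H2-Aa and, as a marker of ventricular cardiomyocytes, Myh6, in each of the 10 hearts of 8 months, on a log axis of CPM plus 0.1. Tgαq*44 mice are drawn to the left of FVB mice, with Tgαq*44 mouse 4 (square) and FVB mouse 3 (diamond) marked: mouse 4 is the highest point for the first 4 genes, with Igkc at 246 CPM, and FVB mouse 3 is the highest for Igtp, at 275 CPM.

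At 8 months, 1185 genes were differentially expressed genes (DEGs), defined by an adjusted p under 0.05 and an absolute log2 fold change over 1, or 7.83% of the genes tested. Of these, 755 were higher (4.99%) and 430 lower (2.84%) in Tgαq*44 mice. The 5 transgenic hearts lay wholly above or below the 5 FVB hearts for 607 of the 755 higher DEGs and for 281 of the 430 lower ones, and over all genes tested they lay wholly above for 12.1% and wholly below for 9.79%. Without a fold minimum, 2638 genes were higher (17.4%) and 2426 lower (16.0%) at an adjusted p under 0.05, and these 2 shares are the background for the gene lists below, in which members are counted at an adjusted p under 0.05 in the same fit. The median log2 fold change over all genes tested was -0.03. In bulk tissue, fewer cells of a type and less RNA per cell cannot be told apart.

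The fold change followed GC content. When genes were split into 10 equal bins by the GC percentage of their exons, the median log2 fold change was -0.25 in the bin poorest in GC and 0.37 in the richest, and the higher DEGs numbered 33 in the poorest bin and 178 in the richest, while the lower DEGs numbered 47 and 17. Higher DEGs had a median GC of 54.0% and lower DEGs of 47.2%, against 49.5% over all genes tested. The trend differed between single mice. The slope of a mouse's log2 deviations on GC was 0.0039, 0.0138, 0.0112, 0.0284 and 0.0267 per GC percentage point in Tgαq*44 mice 1 to 5, against -0.0340, -0.0553, -0.0026, -0.0104 and 0.0184 in FVB mice 1 to 5. FVB mouse 5 lay within the range of the transgenic mice, and FVB mice 1 and 2 had the steepest slopes of all 10. The mean slope was 0.0168 ± 0.0105 in Tgαq*44 mice and -0.0168 ± 0.0286 in FVB mice (SD, n = 5 each; two-sided exact permutation p = 0.0397), and without FVB mice 1 and 2 the difference, Tgαq*44 minus FVB, was 0.0150 instead of 0.0336 (exact permutation p = 0.143). Leaving out 1 mouse at a time gave differences of 0.0239 to 0.0424 and exact permutation p-values of 0.00794 to 0.0873, and p stayed under 0.05 when Tgαq*44 mouse 1, FVB mouse 3 or FVB mouse 5 was left out but not when any other mouse was. The bin medians did not run this way at every age. From the poorest to the richest bin they were 0.06 and -0.12 at 4 months, -0.07 and 0.12 at 10 months, -0.18 and 0.24 at 12 months, and -0.18 and -0.0048 at 14 months.

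With a GC correction per library, 1030 genes were DEGs, 595 higher and 435 lower, and the bin medians lay between -0.07 and -0.0018. Of the 1185 DEGs, 875 (73.8%) were also DEGs after the correction, where they made up 85.0%, all with the same sign. Leaving out FVB mice 1 and 2 instead gave 931 DEGs, of which 832 were shared (70.2% of the 1185, 89.4% of the 931). Whether GC content itself accounts for these shifts was not tested. Each list below was therefore also counted in the corrected fit and without these mice. Over all genes tested, 2360 were higher and 2662 lower at an adjusted p under 0.05 after GC correction (15.6% and 17.6%). Without FVB mice 1 and 2 these were 1579 and 1491, against 2638 and 2426 in the main fit. Without Tgαq*44 mouse 4 they were 2191 and 1895, and without FVB mouse 3 they were 2539 and 2286. A list count that is lower in such a fit is therefore not by itself particular to the list.

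**Figure D2:**
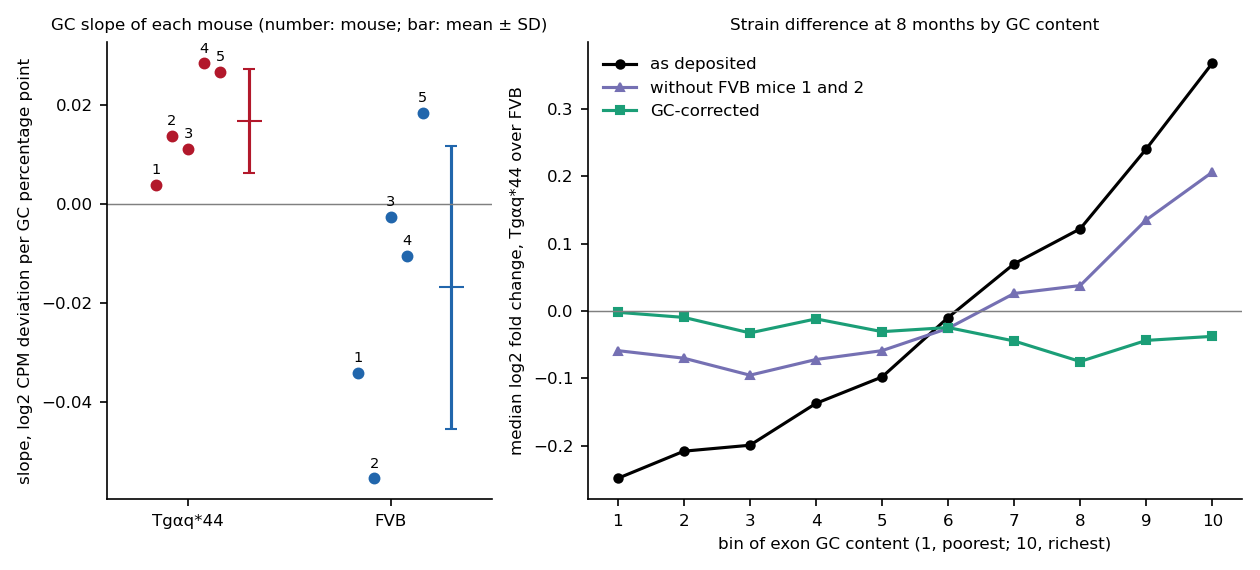
Left, slope of each mouse's log2 CPM deviations on exon GC content, in log2 units per GC percentage point, for Tgαq*44 and FVB mice of 8 months (points, mice; lines, mean ± SD), with FVB mice 1 and 2 lowest at -0.0340 and -0.0553. Right, median log2 fold change of Tgαq*44 over FVB in 10 equal bins of exon GC content, which rises over the bins to 0.37 as deposited, stays between -0.07 and -0.0018 after GC correction, and reaches 0.21 without FVB mice 1 and 2.

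Foetal and hypertrophic cardiac genes were raised in the transgenic hearts. Of 13 measured genes, 10 rose and none fell, with a median log2 fold change of 0.94. In 9 genes all Tgαq*44 hearts lay above all FVB hearts, and in 1, which did not pass, all lay below. With a replicate block or with a length correction, 1 gene of the list fell. Nppa, which encodes atrial natriuretic peptide, had 743, 708, 738, 1729.6 and 965 CPM in Tgαq*44 mice, against 68.0, 20.1, 30.4, 28.3 and 55.3 CPM in FVB mice, and its lowest transgenic heart stood far above the highest FVB heart (log2 fold change 4.60, standard error 0.40, adjusted p = 1.3e-12). Nppb, encoding B-type natriuretic peptide, had 487, 550.1, 582, 877 and 779 CPM in Tgαq*44 mice, against 279, 200.2, 163, 309.9 and 341 CPM in FVB mice, with no overlap but a smaller separation (log2 fold change 1.34, standard error 0.28, adjusted p = 0.00019). Acta1, the skeletal α-actin of the foetal heart, had 2582, 2377, 2586, 4210.0 and 2623 CPM in Tgαq*44 mice, against 619, 406, 638, 634 and 1183 CPM in FVB mice (log2 fold change 2.05, standard error 0.35, adjusted p = 9.8e-06). The ranges of Nppa and Acta1 did not meet, and in both genes Tgαq*44 mouse 4 was the highest. Myh7, the slow β-myosin heavy chain, had 792, 1339, 1632, 1209 and 1072 CPM in Tgαq*44 mice, against 1075, 718, 682, 588 and 719 CPM in FVB mice. Its groups overlapped, and it nevertheless passed the test (log2 fold change 0.68, standard error 0.18, adjusted p = 0.0026). Uchl1, a ubiquitin hydrolase, Fhl1, a LIM protein of the sarcomere, and Actn1, a non-muscle α-actinin, rose by 2.47, 1.29 and 0.92 on the log2 scale.

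The genes of the integrated stress response formed the list with the largest median, 1.53, among the 32 pathway lists. This response is run by ATF4, a transcription factor whose translation increases when initiation factor eIF2α is phosphorylated, and its targets import and make amino acids. Of 26 measured genes, 24 rose and none fell, and in 22 the groups did not overlap, against 12.1% of all genes. After GC correction 23 rose. Asns, asparagine synthetase, had 44.5, 46.0, 27.5, 58.8 and 47.0 CPM in Tgαq*44 mice, against 2.68, 5.16, 3.95, 4.93 and 3.41 CPM in FVB mice (log2 fold change 3.47, standard error 0.21, adjusted p = 6e-18). Mthfd2, the mitochondrial one-carbon enzyme, had 43.9, 53.4, 31.5, 62.7 and 47.6 CPM in Tgαq*44 mice, against 1.34, 2.52, 3.70, 4.00 and 4.11 CPM in FVB mice (log2 fold change 3.89, standard error 0.24, adjusted p = 7.3e-18). In both genes the lowest transgenic heart lay well above the highest FVB heart. Phgdh, the first enzyme of serine synthesis, and Pycr1, the last of proline synthesis, rose by 2.97 and 2.46 on the log2 scale. Chac1, which degrades glutathione, had 30.9, 15.5, 15.0, 37.8 and 46.0 CPM in Tgαq*44 mice, against 4.02, 3.40, 5.83, 5.36 and 3.34 CPM in FVB mice (log2 fold change 2.71, standard error 0.28, adjusted p = 2.1e-10). Its transgenic mice spread more widely than its FVB mice and still did not meet them. Atf4 rose by 0.80, and by 0.47 after GC correction. Ddit3, which encodes the stress factor CHOP, was not distinguishable between the groups (log2 fold change 0.12, adjusted p = 0.61), and Cebpb, encoding a partner of ATF4, did not pass either (0.96, adjusted p = 0.062).

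Promoters of 3 of these genes are shown because they hold the CCAAT-enhancer-binding protein and ATF response element that ATF4 is known to bind, searched here as TGATGNAA on both strands and set in capitals. The windows run from 250 bases before to 50 bases after the start site and are RefSeq sequences of GRCm38.p6, written on the strand of the gene. They are Asns at chr6:7693160-7693459 (minus strand), Chac1 at chr2:119350992-119351291 (plus strand) and Fgf21 at chr7:45615441-45615740 (minus strand).
Asns: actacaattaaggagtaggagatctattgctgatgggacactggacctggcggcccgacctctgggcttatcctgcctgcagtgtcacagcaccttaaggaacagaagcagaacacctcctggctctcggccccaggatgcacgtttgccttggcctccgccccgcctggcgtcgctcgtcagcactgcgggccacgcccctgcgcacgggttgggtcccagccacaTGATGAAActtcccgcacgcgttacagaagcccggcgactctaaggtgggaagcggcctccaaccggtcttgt
Chac1: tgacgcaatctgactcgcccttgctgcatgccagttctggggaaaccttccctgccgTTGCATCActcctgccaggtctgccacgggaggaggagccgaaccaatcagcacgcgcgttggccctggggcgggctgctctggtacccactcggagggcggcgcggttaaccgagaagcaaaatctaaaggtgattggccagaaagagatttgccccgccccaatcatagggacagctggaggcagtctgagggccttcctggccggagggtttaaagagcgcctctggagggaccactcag
Fgf21: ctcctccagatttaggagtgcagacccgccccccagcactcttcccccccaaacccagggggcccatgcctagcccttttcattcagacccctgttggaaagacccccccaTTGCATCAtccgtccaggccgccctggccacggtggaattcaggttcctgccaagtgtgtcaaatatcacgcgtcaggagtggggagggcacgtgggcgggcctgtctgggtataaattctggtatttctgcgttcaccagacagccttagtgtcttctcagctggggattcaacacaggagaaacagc
The motif stood in 9 of the 24 measured members that had a window (37.5%), against 310 of 10999 tested genes with a window (2.82%) and 3.97% of all 32851 windows. The 9 members with it had a median log2 fold change of 2.37, and the 15 without it one of 0.96. Mthfd2, 1 of the most raised members, has no match in its window. A match is a description of these letters, not evidence of binding. The list holds genes of the response that ATF4 runs and was written with earlier results of these data known. Its share of matches is therefore not independent of that choice.

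Secreted factors were among the genes with the largest fold changes. Gdf15, a stress-induced member of the TGF-β family that acts on the brainstem, had 169, 83.2, 114, 203 and 205 CPM in Tgαq*44 mice, against 6.47, 7.35, 6.29, 6.63 and 16.5 CPM in FVB mice (log2 fold change 4.15, standard error 0.43, adjusted p = 1.1e-10). Fgf21, a hormone induced by starvation and by the integrated stress response, had 6.03, 1.72, 1.61, 7.53 and 7.29 CPM in Tgαq*44 mice, against 0, 0, 0.194, 0.085 and 0.155 CPM in FVB mice, or 361 reads in all Tgαq*44 mice against 6 in all FVB mice, 2 of which had none. Fgf23, the bone hormone that makes the kidney excrete phosphate, had 8.28, 8.17, 4.40, 13.4 and 5.78 CPM in Tgαq*44 mice, against 0.446, 0.110, 0, 0.085 and 0.0776 CPM in FVB mice, or 608 reads against 7. For both hormones every transgenic heart lay above every FVB heart, with fitted log2 fold changes of 5.46 and 5.96 (adjusted p = 1.6e-08 and 2.9e-12) that rest on these few FVB reads. Adm2, a vasodilator peptide of the adrenomedullin family, rose by 4.93 and also had a low FVB level, with means of 2.34 CPM in Tgαq*44 mice and 0.0678 CPM in FVB mice.

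**Figure D3:**
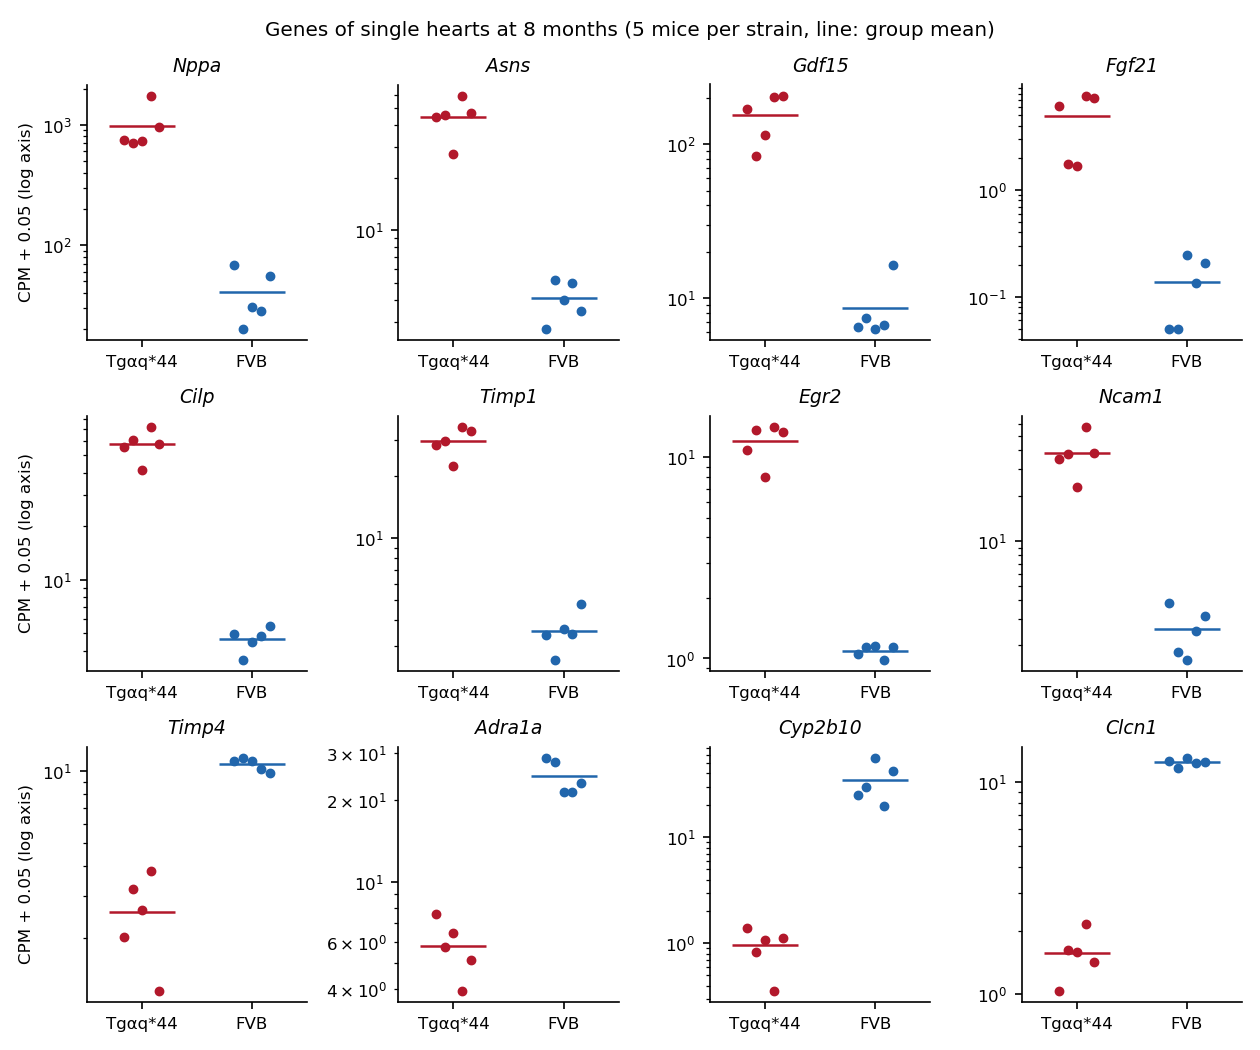
Level of 12 genes in each heart of 8 months, in CPM on a log axis (0.05 CPM added so that zeros can be drawn), Tgαq*44 mice left of FVB mice, with horizontal lines at the group means. Points of the 2 groups do not meet in any panel: Nppa, Asns, Gdf15, Fgf21, Cilp, Timp1, Egr2 and Ncam1 are higher in Tgαq*44 mice, and Timp4, Adra1a, Cyp2b10 and Clcn1 are lower.

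Genes of the interstitial matrix rose almost as a whole. Of 45 measured members 41 rose and none fell, the median log2 fold change was 1.38, and in 40 the groups did not overlap. After GC correction 41 rose, and without FVB mice 1 and 2 it was 38. Cilp, a secreted matrix protein of fibroblasts, had 55.7, 60.7, 41.3, 71.9 and 58.1 CPM in Tgαq*44 mice, against 4.91, 3.51, 4.41, 4.76 and 5.43 CPM in FVB mice (log2 fold change 3.64, standard error 0.29, adjusted p = 8.5e-14). Postn, the matricellular protein periostin, had 216, 214, 178, 207 and 212 CPM in Tgαq*44 mice, against 26.1, 47.2, 35.1, 42.9 and 42.6 CPM in FVB mice (log2 fold change 2.40, standard error 0.22, adjusted p = 2.9e-12). Col1a1, a chain of type I collagen, had 471, 413, 375, 494 and 483 CPM in Tgαq*44 mice, against 63.8, 54.0, 104, 103 and 150.4 CPM in FVB mice (log2 fold change 2.23, standard error 0.29, adjusted p = 3.2e-08). No FVB heart came near the transgenic hearts in these 3 genes. Ltbp2, a fibrillin-binding protein, and the microfibril proteins Mfap4 and Mfap5 rose by 3.41, 2.51 and 1.83. The collagen receptor subunit Itga11 rose by 1.19 (adjusted p = 6.7e-06). Basement membrane genes moved less, with 13 of 20 higher, none lower and a median of 0.48, and after GC correction 2 were lower. Lamc1, a laminin chain, rose by 0.58 and Col18a1, a collagen of vessel basement membranes, by 1.12.

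Among 45 enzymes and inhibitors of the matrix, 31 rose and 2 fell, with a median of 0.83. The tissue inhibitors of metalloproteinases moved in opposite directions. Timp1 had 28.4, 29.7, 22.4, 34.5 and 32.9 CPM in Tgαq*44 mice, against 3.35, 2.52, 3.57, 3.40 and 4.73 CPM in FVB mice (log2 fold change 3.06, standard error 0.30, adjusted p = 2.8e-11). Timp4, the inhibitor most typical of the heart, had 1.98, 3.15, 2.57, 3.79 and 1.16 CPM in Tgαq*44 mice, against 10.9, 11.3, 11.0, 10.2 and 9.78 CPM in FVB mice (log2 fold change -2.04, standard error 0.38, adjusted p = 3.3e-05). The groups were apart in both genes, in opposite order. Timp2 rose by 1.25 and Mmp14, a membrane-bound metalloproteinase, by 1.75. The other lower member, Plod2, a collagen-modifying hydroxylase, no longer passed without FVB mice 1 and 2 (log2 fold change -0.49 with them, adjusted p = 0.027, and -0.20 without them, adjusted p = 0.53).

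In the TGF-β family 19 of 35 genes rose and 3 fell, with a median of 0.68. Tgfb2, a ligand, rose by 1.42, the matrix protein Tgfbi by 1.29 and the follistatin-like Fstl1 by 1.39, while the latency protein Ltbp1 fell by 0.51 and the ligand Bmp7 by 0.99. Of 29 modulators of Wnt signalling 14 rose and 3 fell, with a median of 0.59, while 6 fell after GC correction and 1 without FVB mouse 3. Dkk3, a secreted member of the Dickkopf family, had 18.9, 18.4, 14.6, 17.9 and 17.4 CPM in Tgαq*44 mice, against 4.69, 2.96, 2.79, 3.15 and 3.65 CPM in FVB mice (log2 fold change 2.35, standard error 0.20, adjusted p = 6.8e-13). Sfrp2, a secreted decoy that binds Wnt proteins, had 5.31, 3.51, 4.55, 7.94 and 5.42 CPM in Tgαq*44 mice, against 0.558, 0.768, 0.713, 1.45 and 1.16 CPM in FVB mice (log2 fold change 2.50, standard error 0.29, adjusted p = 1.7e-09). Neither gene's groups met. Sfrp1 rose by 1.26 and the receptor Fzd1 by 1.31. Among 14 genes of the insulin-like growth factor system 7 rose and 1 fell, with Igfbp6, a binding protein, up by 2.16, Igf1 by 1.14 and the insulin receptor gene Insr down by 0.57, a call that was lost without FVB mice 1 and 2 (log2 fold change -0.28, adjusted p = 0.25).

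Markers of fibroblasts moved with the matrix. Of 10 fibroblast markers 9 rose, and their summed level was 4893 to 5328 CPM in Tgαq*44 mice, against 2551 to 2831 CPM in FVB mice. Of 12 markers of activated fibroblasts 9 rose, with sums of 632 to 813 CPM in Tgαq*44 mice and 235 to 447 CPM in FVB mice. These lists share Cilp, Ltbp2, Postn, Col1a1 and Mfap5 with the matrix lists. Macrophage markers also rose in 7 of 11, with sums of 453 to 638 CPM in Tgαq*44 mice and 314 to 410 CPM in FVB mice. Trem2, a receptor of lipid-laden and scar macrophages, rose by 1.83. Without FVB mice 1 and 2, 4 macrophage markers rose. How far more cells account for the matrix counts was not tested.

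Genes of mitochondrial fuel use fell together. In fatty acid oxidation 25 of 35 genes fell and none rose, with a median log2 fold change of -0.69. Acaa2, the mitochondrial thiolase, had 298, 317, 328, 249 and 273 CPM in Tgαq*44 mice, against 698, 536, 699, 759.8 and 726 CPM in FVB mice (log2 fold change -1.22, standard error 0.12, adjusted p = 2.9e-11). Acadm, medium-chain acyl-CoA dehydrogenase, had 252.25, 210.0, 234, 177 and 188 CPM in Tgαq*44 mice, against 566, 519.9, 413, 467 and 378 CPM in FVB mice (log2 fold change -1.14, standard error 0.15, adjusted p = 2.1e-08). All transgenic hearts were below all FVB hearts for both. Etfdh, which passes electrons from this pathway to ubiquinone, and Hadhb, a subunit of the trifunctional protein, fell by 1.00 and 0.93. In the tricarboxylic acid cycle 15 of 18 genes fell and none rose, with a median of -0.66. Idh3b, of isocitrate dehydrogenase, fell by 0.84 and Fh1, fumarase, by 0.81. In the breakdown of branched-chain amino acids and ketones 16 of 21 genes fell, with a median of -0.62, among them Mccc2 (-1.09) and Bckdhb (-1.02). The exception was Bcat1, the cytosolic transaminase of branched-chain amino acids, which had 6.84, 6.66, 2.71, 9.99 and 8.95 CPM in Tgαq*44 mice, against 0.893, 1.75, 1.10, 1.19 and 1.40 CPM in FVB mice (log2 fold change 2.48, standard error 0.31, adjusted p = 9.8e-09). Its groups did not overlap, in the direction opposite to the rest of the list. These counts held after GC correction, with 29, 16 and 18 genes lower.

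Nuclear genes of oxidative phosphorylation fell in 46 of 77 and rose in none, with a median of -0.44. Sdha, the flavoprotein of complex II, had 283, 312, 331, 297 and 285 CPM in Tgαq*44 mice, against 652, 556, 531, 606 and 568 CPM in FVB mice (log2 fold change -0.95, standard error 0.10, adjusted p = 2.9e-10). Atp5a1, the α subunit of ATP synthase, fell by 0.78, and Uqcrfs1, the Rieske protein of complex III, by 0.71. Both were below FVB in every transgenic heart. Of 10 mitochondrially encoded genes 9 fell, with a median of -0.86. Among them mt-Cytb, cytochrome b, fell by 1.09 and mt-Nd4, of complex I, by 1.11. Here the corrected fit and the choice of FVB mice mattered more, since 6 fell after GC correction and 5 without FVB mice 1 and 2.

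Glycolysis and glucose uptake had no common direction, with 5 genes higher and 6 lower of 27 and a median of 0.03. These shares, 18.5% and 22.2%, were near the 17.4% and 16.0% of all genes. The direction of this list depended on GC, since 6 were higher and 12 lower after the correction, with a median of -0.29. Slc2a1, the basal glucose transporter, rose by 1.06 and Pfkp, the platelet form of phosphofructokinase, by 0.94. Pfkfb1, which sets the level of fructose 2,6-bisphosphate, had 4.32, 4.15, 4.77, 3.89 and 3.54 CPM in Tgαq*44 mice, against 17.9, 25.8, 24.2, 24.5 and 21.7 CPM in FVB mice (log2 fold change -2.47, standard error 0.20, adjusted p = 1.8e-13). The groups were wide apart. Ldhb, the heart form of lactate dehydrogenase, and Eno3, muscle enolase, fell by 0.72 and 0.75.

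Genes of the adult sarcomere mostly fell. Of 24 genes 12 fell and 2 rose, with a median of -0.37. Tnnt2 and Tnni3, the cardiac troponins T and I, fell by 0.64 and 0.61, and Tcap, the titin cap, by 1.01. Myh6, the fast α-myosin heavy chain of the adult mouse ventricle, had 9307, 9731, 9962, 8055 and 10518 CPM in Tgαq*44 mice, against 17053, 14138, 16026, 16839 and 17988 CPM in FVB mice (log2 fold change -0.79, standard error 0.15, adjusted p = 4e-05). The groups did not overlap. The genes that rose were Synpo2l (1.62), a Z-disc protein, and Des (0.65), desmin. Of 14 ventricular cardiomyocyte markers 11 fell and none rose, and their summed level was 75887 to 85761 CPM in Tgαq*44 mice, against 83857 to 107445 CPM in FVB mice, so the sums of the groups overlapped.

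Calcium handling followed the same direction, with 11 of 23 genes lower, 1 higher and a median of -0.38. Ryr2, the calcium release channel of the sarcoplasmic reticulum, had 634, 513, 511, 414 and 553 CPM in Tgαq*44 mice, against 1101, 1295, 1018, 994 and 987 CPM in FVB mice (log2 fold change -1.04, standard error 0.13, adjusted p = 1.5e-08). Atp2a2, the calcium pump SERCA2, had 8187, 8106, 8439.9, 7517 and 7913 CPM in Tgαq*44 mice, against 11053, 12115, 12940.0, 13638 and 13237 CPM in FVB mice (log2 fold change -0.65, standard error 0.08, adjusted p = 3.4e-08). No overlap was seen for either. Pln, phospholamban, which restrains that pump, fell by 0.89 and Casq2, the calcium store protein, by 0.60. Among ion channels and gap junctions 13 of 30 genes fell and 5 rose, with a median of -0.26, and after GC correction 19 fell and 4 rose, with a median of -0.51. Clcn1, a chloride channel known from skeletal muscle, had 0.990, 1.58, 1.54, 2.10 and 1.37 CPM in Tgαq*44 mice, against 12.6, 11.6, 13.0, 12.3 and 12.5 CPM in FVB mice (log2 fold change -2.99, standard error 0.24, adjusted p = 1.5e-13). The 2 groups were far apart. Kcnj3 and Kcnj5, which form the muscarinic potassium channel, fell by 1.65 and 1.03, and Kcnv2, a silent potassium channel subunit, by 2.21. Hcn2, a pacemaker channel, rose by 0.77 but not after GC correction (0.23, adjusted p = 0.18).

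Around Gαq itself the changes went both ways. Of 40 genes of Gq signalling 9 rose (22.5%, against 17.4% of all genes) and 8 fell (20%, against 16.0%), shares near the background, with a median of -0.15, and without FVB mice 1 and 2 it was 5 and 7. Rcan1, an inhibitor of calcineurin whose short transcript is induced by calcineurin and NFAT, had 705, 499, 589.8, 723 and 765 CPM in Tgαq*44 mice, against 133, 182, 147, 152 and 217 CPM in FVB mice (log2 fold change 1.98, standard error 0.20, adjusted p = 8.4e-11). Its lowest transgenic heart was far above the highest FVB heart. Nfatc4, of the same pathway, rose by 0.95. Prkcq and Prkce, isoforms of protein kinase C, fell by 0.93 and 0.65, while the isoform Prkcd rose by 0.57. Rgs2, which accelerates Gαq's return to the inactive state, fell by 0.93, and Itpr2, the inositol trisphosphate receptor of cardiomyocytes, by 0.74.

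Receptors that couple to Gαq moved in both directions. Adra1a, the α1A-adrenergic receptor, had 7.56, 5.66, 6.38, 3.89 and 5.05 CPM in Tgαq*44 mice, against 28.6, 27.6, 21.5, 21.4 and 23.1 CPM in FVB mice (log2 fold change -2.11, standard error 0.20, adjusted p = 8.3e-12). Agtr1a, the main angiotensin II receptor of the mouse heart, had 34.0, 34.3, 37.8, 31.9 and 30.8 CPM in Tgαq*44 mice, against 72.4, 70.4, 65.4, 62.4 and 60.4 CPM in FVB mice (log2 fold change -0.97, standard error 0.17, adjusted p = 1.2e-05). Every transgenic heart was lower than every FVB heart in both. Ednra, an endothelin receptor, fell by 0.46 (adjusted p = 0.0059) with overlapping groups, but did not pass after GC correction (log2 fold change -0.33, adjusted p = 0.061). The renin-angiotensin and natriuretic list moved both ways, with 6 of 18 genes higher and 6 lower and a median of 0.08 (-0.11 after GC correction), and without FVB mice 1 and 2 it was 3 and 5. Ace, the angiotensin-converting enzyme, had 180.5, 176, 155, 209.8 and 218 CPM in Tgαq*44 mice, against 54.6, 43.8, 70.3, 67.2 and 83.0 CPM in FVB mice (log2 fold change 1.55, standard error 0.17, adjusted p = 4.7e-10). No FVB heart reached the transgenic ones. Bdkrb2, a bradykinin receptor that couples to Gαq, rose by 1.43. Mas1, the receptor of angiotensin-(1-7), fell by 1.96, Nr3c2, the mineralocorticoid receptor, by 1.07, and Mme, neprilysin, which degrades natriuretic peptides, by 1.38. Of 26 genes of adrenergic and endothelin signalling 9 rose and 5 fell, with 4 and 6 after GC correction and 4 and 4 without FVB mice 1 and 2, and Grk5, a receptor kinase, rose in both fits (0.53, and 0.62 after correction).

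**Figure D4:**
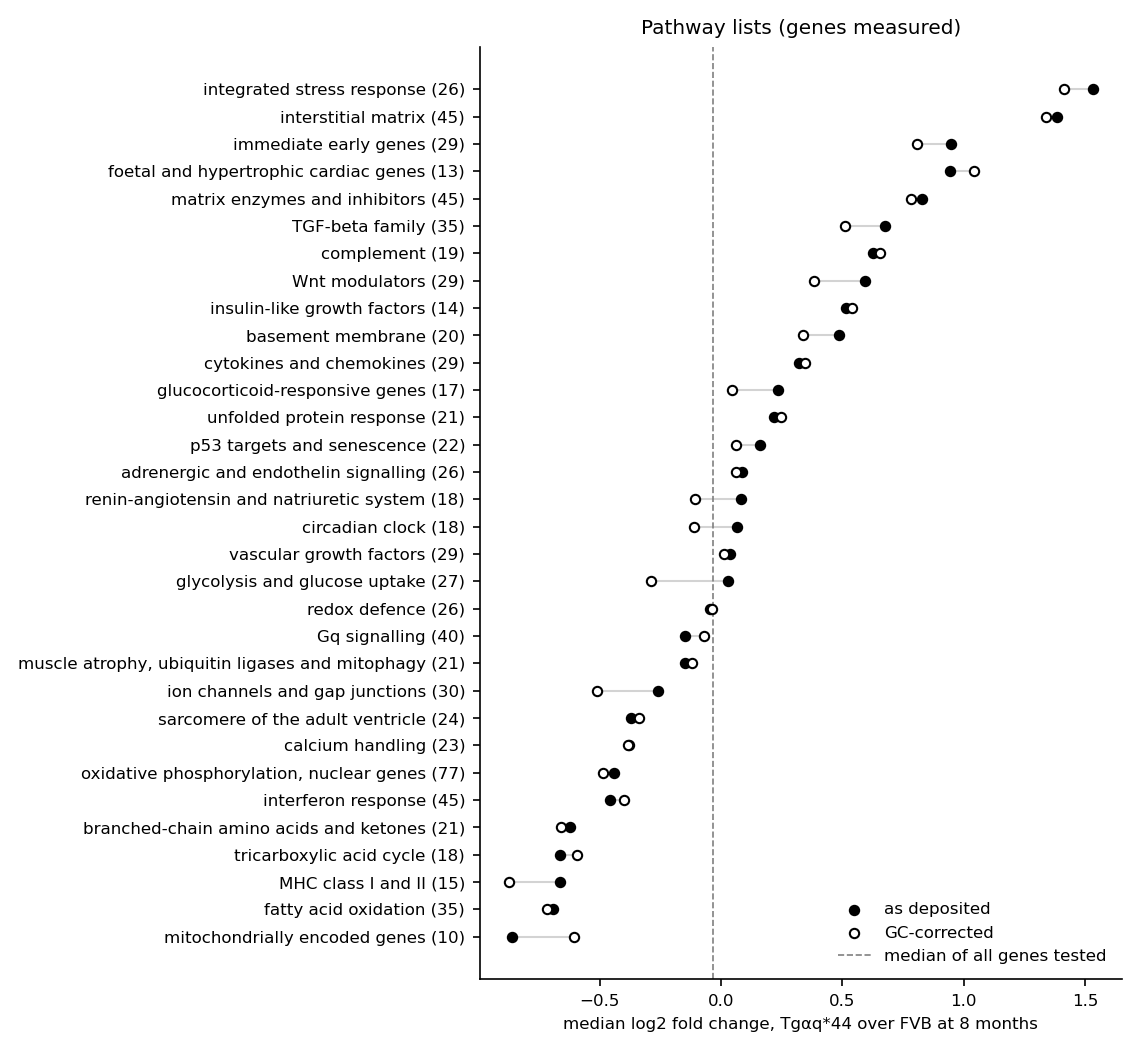
Median log2 fold change of Tgαq*44 over FVB at 8 months for each of the 32 pathway lists (filled, as deposited; open, after GC correction), ordered by the uncorrected median, with the median over all 15129 genes (-0.03) as a dashed line. The lists run between 1.53 for the integrated stress response and -0.86 for the mitochondrially encoded genes, and the corrected medians of ion channels and of glycolysis lie lower, at -0.51 and -0.29.

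Immediate early genes, the transcription factors first induced by growth stimuli, rose in 23 of 29 and fell in none, with a median of 0.95. After GC correction or without FVB mice 1 and 2, 17 rose. Egr2 had 10.9, 13.6, 7.92, 14.1 and 13.4 CPM in Tgαq*44 mice, against 1.00, 1.10, 1.10, 0.935 and 1.09 CPM in FVB mice (log2 fold change 3.51, standard error 0.43, adjusted p = 8.8e-09). Egr3 had 21.9, 44.4, 25.9, 41.0 and 41.7 CPM in Tgαq*44 mice, against 3.12, 4.39, 3.57, 4.00 and 6.67 CPM in FVB mice (log2 fold change 3.00, standard error 0.39, adjusted p = 3.5e-08). The FVB hearts clustered closely at a low level of Egr2 and no transgenic heart came down to it. Maff and Fosl2 rose by 1.43 and 1.24. Cdkn1a, the cell cycle inhibitor p21, had 48.1, 55.7, 51.3, 79.1 and 69.5 CPM in Tgαq*44 mice, against 8.15, 18.2, 26.1, 19.0 and 27.0 CPM in FVB mice (log2 fold change 1.61, standard error 0.33, adjusted p = 0.00012). The groups were apart. The p53 targets and senescence genes, a list that holds Cdkn1a, did not share a direction, with 7 of 22 higher and 4 lower, and 3 and 0 without FVB mice 1 and 2. Of 21 genes of the unfolded protein response of the endoplasmic reticulum 5 rose and 1 fell, with a median of 0.22. Without Tgαq*44 mouse 4 or without FVB mouse 3 only 2 of these rose, and without FVB mice 1 and 2 only 1, Edem1, which sends misfolded proteins to degradation (log2 fold change 0.51, adjusted p = 0.0051 in that fit).

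Redox defence split by member, with 8 of 26 genes higher and 6 lower. Hmox1, haem oxygenase, and Srxn1, sulfiredoxin, both targets of the factor NRF2, rose by 1.41 and 1.06, while the mitochondrial peroxiredoxins Prdx3 and Prdx5 and the mitochondrial superoxide dismutase Sod2 fell by 0.81, 0.68 and 0.61. Of 21 genes of muscle atrophy and mitophagy 5 fell and 2 rose, and 8 fell after GC correction. The ubiquitin ligase genes Fbxo32 and Trim63 fell by 0.49 and 0.34, and Fbxo32 did not pass without FVB mice 1 and 2 (adjusted p = 0.31). Of 18 circadian clock genes 3 rose (16.7%) and 4 fell (22.2%), and 1 and 1 without FVB mice 1 and 2. Of 29 vascular growth factors and receptors 6 rose (20.7%) and 5 fell (17.2%), and 4 and 2 without these mice, with Pdgfc up by 1.59 and Angpt1 down by 0.87. The shares of both lists were near the background of 17.4% higher and 16.0% lower over all genes.

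Immune genes went in different directions. Complement rose in 13 of 19 genes and fell in 1, with a median of 0.62, and 8 rose without FVB mice 1 and 2. C3 had 525, 336, 318, 619 and 473 CPM in Tgαq*44 mice, against 207, 151, 245, 209.8 and 248 CPM in FVB mice (log2 fold change 1.10, standard error 0.19, adjusted p = 1.3e-05). C7, of the membrane attack complex, rose by 1.96, and Cd59a, which blocks that complex, fell by 0.72. Interferon-response genes fell in 19 of 45 and rose in 1, with a median of -0.46. Igtp had 27.8, 8.67, 11.4, 7.94 and 13.2 CPM in Tgαq*44 mice, against 25.6, 83.1, 275, 73.8 and 19.6 CPM in FVB mice (log2 fold change -2.82, standard error 0.64, adjusted p = 0.00048). FVB mouse 1 lay below Tgαq*44 mouse 1, so the groups overlapped, and the FVB mice spread widely. After GC correction or without FVB mice 1 and 2, 16 interferon-response genes fell. Without FVB mouse 3, 10 fell, and without Tgαq*44 mouse 4, 13. In no interferon-response gene did all Tgαq*44 hearts lie below all FVB hearts, against 9.79% of all genes. Without FVB mice 1, 2 and 3 and Tgαq*44 mouse 4, which leaves fewer mice, none of the list passed and the median was -0.11. Of 15 MHC class I and II genes 6 fell and none rose, with a median of -0.67. After GC correction 9 fell, without FVB mice 1 and 2 it was 8, and without FVB mouse 3 only 2. Without those 4 libraries 1 MHC gene fell, and over all genes tested 905 were higher and 804 lower in that fit. H2-Aa, a class II chain, had 67.6, 75.9, 103, 82.8 and 65.1 CPM in Tgαq*44 mice, against 127, 219, 378, 307 and 149 CPM in FVB mice (log2 fold change -1.58, standard error 0.33, adjusted p = 0.00019). All transgenic hearts were below the lowest FVB heart. Il15, a cytokine made by muscle, had 28.2, 25.5, 26.8, 23.6 and 29.0 CPM in Tgαq*44 mice, against 62.8, 71.0, 57.8, 54.0 and 56.6 CPM in FVB mice (log2 fold change -1.18, standard error 0.12, adjusted p = 1.3e-10). The groups were wide apart. Among 29 cytokines and chemokines 12 rose and 3 fell, with Lgals3, galectin-3, up by 1.74. The number that rose was 7 without FVB mice 1 and 2.

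The promoter of Igtp is shown because it holds the interferon-stimulated response element that interferon regulatory factors are known to bind, searched on both strands as TTTC followed, after any 2 bases, by TTTC, and set in capitals. It is RefSeq sequence of GRCm38.p6 at chr11:58199306-58199605 (plus strand).
Igtp: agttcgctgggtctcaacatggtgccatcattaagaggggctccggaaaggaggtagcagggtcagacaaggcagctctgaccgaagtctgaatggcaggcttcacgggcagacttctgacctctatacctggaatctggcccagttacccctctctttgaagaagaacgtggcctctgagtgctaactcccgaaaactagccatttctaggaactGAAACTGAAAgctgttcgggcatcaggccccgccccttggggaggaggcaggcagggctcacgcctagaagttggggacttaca
The motif stood in 18 of 33 measured interferon-response genes with a window (54.5%), against 410 of 10999 tested genes (3.73%) and 3.44% of all windows. The 18 members with it had a median log2 fold change of -0.48 and the 15 without it one of -0.37. This list, too, was written for its response with earlier results known, so the share of matches is a description alone.

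For several other cell types the counts rested on Tgαq*44 mouse 4. All 5 measured B and plasma cell markers rose, with a median of 2.11, and without Tgαq*44 mouse 4 none passed. Igkc had 5.31, 3.73, 2.79, 246 and 3.54 CPM in Tgαq*44 mice, against 1.23, 1.54, 2.01, 4.17 and 3.57 CPM in FVB mice. Only mouse 4 was high. The same held for epicardium and mesothelium, where 5 of 7 markers rose with mouse 4 and none without it or without FVB mice 1 and 2, and for mast cells, where 2 rose with it and none without it. Of the 5 skeletal muscle markers 4 rose and 1 fell. Tnnt3 had 1.17, 1.29, 1.17, 47.8 and 1.01 CPM in Tgαq*44 mice, against 0.335, 0.658, 0.324, 0.595 and 0.776 CPM in FVB mice, and without mouse 4 its log2 fold change was 1.10 (adjusted p = 0.039) instead of 4.31. Acta1, also a marker of that list, kept a log2 fold change of 1.87 without that mouse. None of 10 markers of proliferating cells and none of the erythroid markers passed. Of 12 endothelial markers 1 rose and 3 fell, and none passed without FVB mice 1 and 2. In the remaining marker lists, those higher and lower were 3 and 1 of 7 for atrial cardiomyocytes, 1 and 1 of 7 for the conduction system, 3 and 0 of 5 for the endocardium, 3 and 1 of 5 for lymphatic endothelium, 2 and 1 of 8 for pericytes, 1 and 0 of 7 for smooth muscle cells, 2 and 2 of 8 for T and NK cells (none without FVB mouse 3), and 0 and 1 of 6 for Schwann cells, while none of 4 markers of monocytes and neutrophils passed. Of 6 adipocyte markers 1 rose, with a median of 0.79, and without Tgαq*44 mouse 4 none rose and 1 fell, with a median of -0.57. Their summed level was 96.1 CPM in that mouse, against 16.5 to 24.9 CPM in the other Tgαq*44 mice and 18.4 to 39.4 CPM in FVB mice.

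Some of the genes with the largest fold changes belong to none of the groups above. Ncam1, a neural adhesion molecule, had 35.1, 37.7, 22.7, 57.2 and 38.2 CPM in Tgαq*44 mice, against 3.79, 1.75, 1.56, 2.47 and 3.10 CPM in FVB mice (log2 fold change 3.94, standard error 0.24, adjusted p = 7.3e-18). The SH2-domain adaptor gene Sh2d6, the cationic amino acid transporter gene Slc7a3 and Atp6v0a4, of the vacuolar proton pump, rose by 4.74, 4.28 and 3.82, with means of 3.89 CPM in Tgαq*44 mice and 0.142 CPM in FVB mice for Sh2d6. Cyp2b10, a cytochrome P450, had 1.35, 0.788, 1.03, 0.307 and 1.08 CPM in Tgαq*44 mice, against 25.1, 30.1, 55.8, 19.7 and 42.2 CPM in FVB mice (log2 fold change -5.32, standard error 0.45, adjusted p = 4.9e-13). It was the DEG with the lowest fold change among those whose groups did not overlap and which averaged at least 2 CPM in FVB mice. Scd4, the stearoyl-CoA desaturase of heart, had 1.53, 1.72, 2.20, 1.43 and 0.650 CPM in Tgαq*44 mice, against 8.15, 18.3, 24.4, 24.8 and 13.7 CPM in FVB mice (log2 fold change -3.57, standard error 0.46, adjusted p = 2.2e-08). In both the transgenic hearts were below the FVB hearts without overlap. Acsm5, a medium-chain acyl-CoA synthetase of mitochondria, Acot1, an acyl-CoA thioesterase, and Cyp26b1, which degrades retinoic acid, fell by 3.23, 2.46 and 2.85. Tmprss4, a membrane serine protease, Lgi1, a secreted protein of neurons, Ptchd3 and Amtn, an enamel protein, fell by 3.02, 2.95, 3.30 and 2.86, with FVB means between 2.17 and 5.77 CPM. Cyp2b10, Scd4 and Acot1 have close paralogs, so reads shared between copies make their levels uncertain.

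Set against the other ages, the strain difference at 8 months was unlike that at 4 months for 1488 genes (9.84%), larger for 888 (5.87%) and smaller for 600 (3.97%). Larger means a higher log2 ratio of Tgαq*44 over FVB at 8 months, and smaller a lower one. For a gene below FVB at both ages, smaller is thus a wider gap. This count rests on few libraries, and it was 489 without FVB mice 1 and 2 and 914 without Tgαq*44 mouse 4. For 19 genes the strain difference differed from that at 10 months (0.126%), larger at 8 months for 13 (0.0859%) and smaller for 6 (0.0397%), and without FVB mice 1 and 2 for 4. It differed from the mean of the other 4 ages for 151 genes (0.998%), and without FVB mice 1 and 2 for 3. The DEGs of the single ages numbered 663 at 4 months (4.38%), 1185 at 8 months, 1483 at 10 months (9.80%), 2018 at 12 months (13.3%) and 1482 at 14 months (9.80%).

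Between 4 and 8 months, the stress response and the interferon response shifted most by count, which does not take list length into account. The difference was larger at 8 months for 17 of the 26 stress-response genes and smaller for none, and for 11 of them without FVB mice 1 and 2. Their median log2 fold change was 0.41 at 4 months, 1.53 at 8, 1.26 at 10, 1.06 at 12 and 1.07 at 14 months. Without FVB mice 1 and 2 the median at 8 months was 1.36. Of these 26 genes, 1 had a larger difference at 8 than at 10 months, and 3 a larger one than the mean of the other ages. Chac1 differed by 0.46 at 4 months and by 2.71 at 8 months (adjusted p of the change = 0.00034). The interferon response had a median of 0.40 at 4 months, -0.46 at 8, -0.57 at 10, -0.07 at 12 and -0.62 at 14 months, and the difference was smaller at 8 than at 4 months for 18 of 45 genes, for 13 without FVB mice 1 and 2 and for 11 without Tgαq*44 mouse 4. This count was not made without FVB mouse 3, which had the highest summed level of the list, so its weight in the change is not known. Glucocorticoid-responsive genes had a median of -1.41 at 4 months and 0.23 at 8 months, and the difference was larger at 8 months for 10 of 17. At 8 months itself 3 of these 17 genes were higher and 2 lower. In the interstitial matrix it was larger for 11 of 45. The log2 ratio was lower at 8 than at 4 months for 7 of 35 genes of fatty acid oxidation and 6 of 18 of the tricarboxylic acid cycle. Without FVB mice 1 and 2 these numbers were 6, 5 and 2, and without Tgαq*44 mouse 4 they were 8, 4 and 6. The ratio was also lower for 5 of 10 mitochondrially encoded genes and for 9 of 21 genes of branched-chain amino acids and ketones. For these 2 lists the count was 0 and 3 without FVB mice 1 and 2, and 2 and 6 without Tgαq*44 mouse 4. The medians lay further below FVB at 8 months. From 4 to 8 months they went from -0.44 to -0.69 in fatty acid oxidation and from -0.32 to -0.66 in the tricarboxylic acid cycle. They went from -0.28 to -0.86 in mitochondrially encoded genes and from -0.36 to -0.62 in branched-chain amino acids and ketones.

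**Figure D5:**
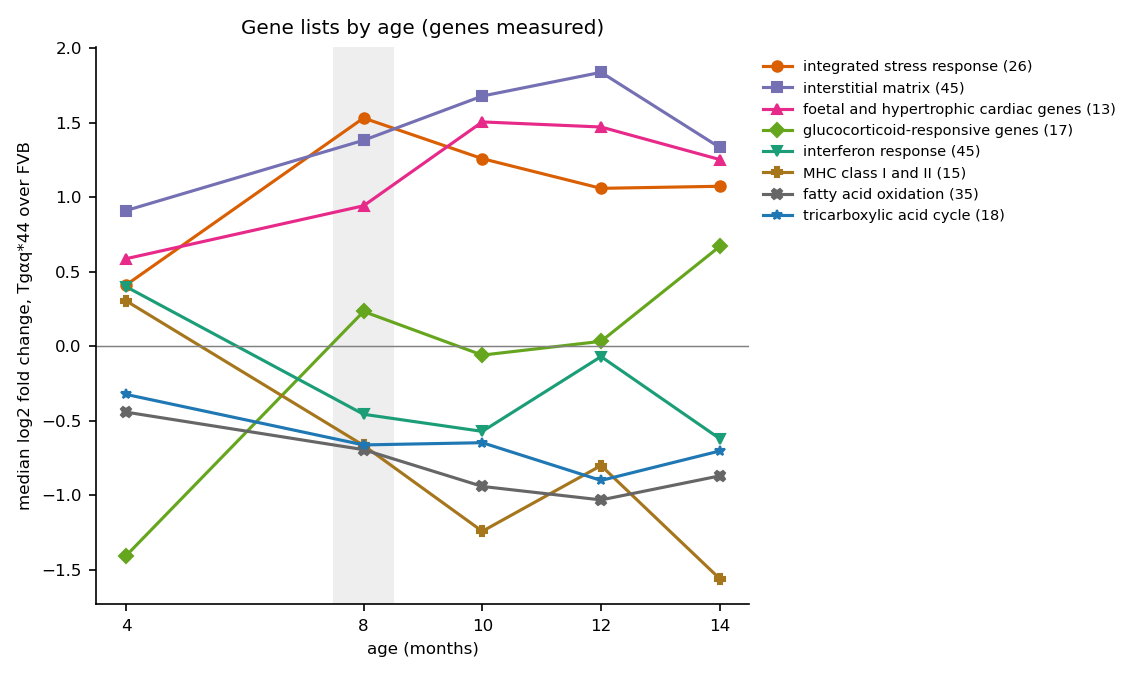
Median log2 fold change of Tgαq*44 over FVB for 8 gene lists at 4, 8, 10, 12 and 14 months, with 8 months shaded. The integrated stress response was highest at 8 months (1.53), the glucocorticoid-responsive genes were lowest at 4 months (-1.41), and the interferon response and the MHC genes were positive at 4 months (0.40 and 0.30) and negative at 8 months (-0.46 and -0.67). Of the 26 stress-response genes, 1 passed the test of a change between 8 and 10 months.

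Cdkn1a had a log2 fold change of -1.97 at 4 months and 1.61 at 8 months, a change of 3.58 (adjusted p = 1.5e-06). Ncam1 differed by 1.03 at 4 months and by 3.94 at 8 months (adjusted p = 2e-07). Ace did not pass at 4 months, with a log2 fold change of 0.05 (adjusted p = 0.88), against 1.55 at 8 months (adjusted p of the change = 4.3e-05). Nppa differed by 2.73 at 4 months and 5.82 at 12 months. Among the 6 genes with the largest changes in each direction, Sh2d6 and Rasd1, a Ras-like protein, were larger at 8 months (by 3.61 and 3.35), as were Atp2a1, Cxcl13 and Tnni2, which were high in Tgαq*44 mouse 4 alone. Smaller at 8 months were the chemokines Ccl12 (-3.64), Ccl7 (-3.00) and Cxcl9 (-2.97), the protease inhibitor gene Serpina3f (-2.92), Igtp (-3.17) and BC023105 (-5.47).

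Against 10 months, Lum and Dcn, the small proteoglycans lumican and decorin, differed by 0.80 and 0.44 at 8 months and by 1.62 and 1.11 at 10 months (adjusted p of the change = 0.0083 and 0.047). Cytl1, a secreted cytokine-like protein, did not pass the test at 8 months, with 31.3, 30.2, 29.0, 32.6 and 27.9 CPM in Tgαq*44 mice, against 29.7, 29.5, 28.0, 25.8 and 33.4 CPM in FVB mice, a full overlap (log2 fold change 0.05, adjusted p = 0.86). It differed by 1.65 at 10 months, 2.26 at 12 months and 2.53 at 14 months, and the change between 8 and 10 months passed the test (adjusted p = 9.5e-05). Clcn1 was lowered more at 10 months, by 5.27, than at 8 months, and Gnb3, a G-protein β subunit, fell by 0.91 at 8 and by 2.50 at 10 months (adjusted p of the change = 0.016 and 0.00067). Ces1d, a lipid hydrolase, and Dgat2, the last enzyme of triglyceride synthesis, also fell further at 10 months, by 3.17 and 1.95 against 1.83 and 0.83 at 8 months. The 6 genes with the largest excess at 8 months over the mean of the other ages were Ighg1, Tnni2, Atp2a1, Cxcl13, Igkc and Jchain, each high in Tgαq*44 mouse 4 alone.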

How the data were processed

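RNA from the apex of the left ventricle of single mice was made into poly(A)-selected libraries (Lexogen Sense mRNA-Seq kit) and sequenced on a NextSeq in several runs, and which library belonged to which run was not given in the sources used here. Before deposit, the authors used Cutadapt for trimming, FastQC for quality, STAR for alignment to GRCm38.p6 and HTSeq over exons for counting, and the table of gene counts was used as deposited. The strand setting of the counting was not given in the sources used here, so overlapping and antisense genes are uncertain. The other deposited tables hold the authors' own fold changes, gene lists and enriched processes and were not used.

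Groups were taken from the sample titles. All 50 libraries, in 10 groups of 5 mice, entered 1 model in edgeR 4.0.16 (R 4.3.3) with TMM scaling. A gene was tested if its CPM exceeded 0.5 in over 3 mice of at least 1 group. The quasi-likelihood test was applied to the strain difference at 8 months and to its change against 4 months, 10 months and the mean of the other ages. Shares and GC slopes of single mice were compared with exact permutation tests, two-sided. GC percentages are those of GENCODE M21 exons, with 54409 of 54532 gene IDs matched, and the correction used a smooth of each library's log2 deviations on GC as offsets. Code was tested on simulated data.

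Members and gene lists were chosen with earlier results of these data known. Named genes are Gnaq, the 12 DEGs per direction with the largest fold change among those whose groups do not overlap and whose higher group averages at least 2 CPM (predicted genes left out), up to 4 passing members per direction of each list with the lowest adjusted p, members named for their role, 9 genes that the study names, and the 6 genes per direction with the largest change between ages. Some genes that this rule picks are not reported here. Alternatives were limma-voom (limma 3.58.1), DESeq2 1.42.0, median-of-ratios scaling, other low-count filters, fewer groups in the fit, a replicate block, GC and length corrections, protein-coding genes alone and each mouse left out in turn. Leaving out FVB mice 1 and 2, or these with FVB mouse 3 and Tgαq*44 mouse 4, and dropping mitochondrially encoded genes were chosen after seeing the data. The labels name separate mice as replicates. Counting sets a lower limit to the error of weakly expressed genes, and the depths of the strains overlapped.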

Additional observations from a re-analysis of the deposited data

Results flagged for a closer look

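In each group of 5 mice whose values are given above, the highest and the lowest mouse were compared with their neighbours by Dixon's test, with a critical value of 0.71 for the gap as a share of the range. Of 92 groups, 12 held a mouse beyond it. Some of these genes are shown because a mouse stood apart in them, so this count cannot be set against a chance rate. Gene values entered as CPM, without logs. Tgαq*44 mouse 4 was the mouse concerned for Acta1 (4210.0 CPM), Igkc (246 CPM), Nppa (1729.6 CPM) and Tnnt3 (47.8 CPM), each time as the highest of its group. Among the other Tgαq*44 mice, mouse 1 was high for Igtp (27.8 CPM) and for the share of mitochondrially encoded counts (19.0%), and mouse 3 was low for Postn (178 CPM). Among FVB mice, mouse 1 was high for Myh7 (1075 CPM) and Fgf23 (0.446 CPM), mouse 2 was low for Acaa2 (536 CPM), mouse 3 was high for Igtp (275 CPM) and mouse 5 was high for Gdf15 (16.5 CPM).

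The strain difference changed with age by the test of the change itself in edgeR. It differed between 8 and 4 months for 1488 genes, between 8 and 10 months for 19 and between 8 months and the mean of the other ages for 151. Against 4 months, the log2 fold change was larger at 8 months by 1.51 for Ace, 5.83 for Atp2a1, 3.58 for Cdkn1a, 2.25 for Chac1, 5.75 for Cxcl13, 2.91 for Ncam1, 3.35 for Rasd1, 3.61 for Sh2d6 and 4.74 for Tnni2. The change was -5.47 for BC023105, -3.64 for Ccl12, -3.00 for Ccl7, -2.97 for Cxcl9, -3.17 for Igtp and -2.92 for Serpina3f. Against 10 months it was 1.34 for Ces1d, 2.28 for Clcn1, 1.12 for Dgat2 and 1.59 for Gnb3, all of which were lowered less at 8 months, and -1.60 for Cytl1, -0.68 for Dcn and -0.82 for Lum, which were raised less.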

How the results depend on the processing

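The 1185 DEGs at 8 months came to between 902 and 1344 under every alternative of test, scaling, filter, correction and gene set, and to between 1012 and 1380 with 1 mouse left out, except in 2 cases. Without FVB mice 1, 2 and 3 and Tgαq*44 mouse 4, the 4 libraries that stood apart, there were 648 (431 higher, 217 lower), and 274 genes of the pathway lists passed. That setting was chosen after seeing the data and leaves fewer mice. Without a fold minimum there were 5064 (2638 higher, 2426 lower). With each mouse left out, higher DEGs numbered 644 to 887, lower DEGs 368 to 493 and passing list genes 465 to 513. The share of mitochondrially encoded counts differed by -11.1 to -8.31 percentage points and the GC slope by 0.0239 to 0.0424, and the slope by 0.0150 without FVB mice 1 and 2. Of 144 genes named for 8 months, 118 kept their call under every alternative, and Igkc alone turned its sign (-0.019 without the 4 libraries).

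The counts of genes whose strain difference changed with age depended on single libraries and on the fit, and the cause was not tested. Against 4 months (1488 genes) the count was 489 without FVB mice 1 and 2, 681 with GC correction as well, 143 without the 4 libraries and 847 to 2448 with 1 mouse left out. It left the range within 1.5 times without FVB mouse 3 (2448) or 5 (934) or Tgαq*44 mouse 3 (954) of 4 months, or FVB mouse 1 (977) or 2 (847) or Tgαq*44 mouse 4 (914) of 8 months. Against 10 months (19 genes) it was 60 by DESeq2, 55 with no low-count filter, 4 with only the compared groups in the fit, 33 with GC correction, 4 without FVB mice 1 and 2, 9 with GC correction as well, 4 without the 4 libraries and 6 to 64 with 1 mouse left out, the lowest without Tgαq*44 mouse 3 of 8 months or mouse 1 of 10 months and the highest without Tgαq*44 mouse 3 of 10 months. Against the mean of the other ages (151 genes) it was 285 by DESeq2, 3 without FVB mice 1 and 2, 15 with GC correction as well, 1 without the 4 libraries and 34 to 534 with 1 mouse left out, the lowest without FVB mouse 2 and the highest without FVB mouse 5 of 8 months. Of the genes named for a change against 4 months, 7 of 15 kept their call under every alternative, and of those against 10 months 2 of 7. The larger strain difference at 8 months of Atp2a1 and Tnni2 turned to -0.15 and -0.32 without the 4 libraries, and that of Tnni2 ranged over -0.31 to 5.17 with 1 mouse left out, the lowest without Tgαq*44 mouse 4.

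Mouse numbers are repeated in every group but were not taken to pair the mice, since not every pair correlated over 0.1. Mice of the same number correlated at 0.302, 0.179, -0.045, 0.254 and 0.424 over 11787 genes, and only mice 2 and 5 correlated best with their own number. With the number as a replicate block there were 1200 DEGs at 8 months, 2279 genes against 4 months, 51 against 10 months and 546 against the mean of the other ages. With GC correction as well, the block gave 1037 DEGs, 76 genes against 10 months and 397 against the mean of the other ages. Depth limits the weakest genes, such as Fgf21 and Fgf23, with 6 and 7 reads over the FVB mice.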
